A study of Drosophila melanogaster with 14 samples.

Results

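Of the 2517 CP190 peaks listed for wild-type flies, 214 (8.50%) had no CP190 summit within 200 bp in flies with a deletion in dCTCF, and these 214 are described here. A summit is the position of highest signal in a peak. The peaks were chosen from the CP190 lists of both genotypes, by the distance between summits, so the absence of a deletion-line summit is the definition of the set and not a result. They comprise 165 peaks (6.56% of the list) whose whole interval overlapped no CP190 interval of the deletion line, called absent peaks below, and 49 (1.95%) that overlapped such an interval with its summit elsewhere, called moved peaks. The remaining 2303 are called recurring. The deletion-line CP190 list is longer, with 3164 peaks, and limited to its 2517 strongest it left 348 peaks chosen and 304 absent.

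The flies were whole adults of Drosophila melanogaster, aged 2 to 3 days and labelled as strain Oregon-R, with the genotype given as dCTCFwt or as dCTCFdelta705-733, called the deletion line. Chromatin was precipitated with an antibody against the HA tag, against dCTCF or against CP190 and sequenced (ChIP-seq), which gave 6 pairings of antibody and genotype with 2 replicate libraries each. There were 2 control libraries, labelled PI_mouse and PI_rat, both from flies labelled wt, and the HA and CP190 lists of both genotypes share the mouse one. The files hold 1 peak list per combination, so no value below has a spread between replicates, no difference between genotypes or between groups of peaks could be tested, and sequencing depth is unknown. The range given after a share is its 95% Wilson interval, which takes peaks as independent and covers counting error alone. Whole flies mix many cell types, and fewer cells with a bound site cannot be told apart from less binding per cell.

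dCTCF is the fly homologue of CTCF, a zinc-finger protein that binds its own DNA sequence and marks boundaries between chromatin domains. CP190 is a protein with a BTB domain that is found with dCTCF and with other DNA-binding insulator proteins, and also at the promoters of many active genes. A CP190 peak can therefore lie at a dCTCF site or away from one, and the HA and dCTCF lists, which did not enter the choice of peaks, tell these apart. The labels do not say which protein carries the HA tag, and a site is called a dCTCF site here when either antibody gave a peak.

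A large part of the chosen peaks lay at dCTCF sites. An HA or dCTCF-antibody peak of wild type overlapped 94 of the 214 (43.9%, interval 37.4 to 50.6), against 19.03% of all wild-type CP190 peaks, and an HA or dCTCF-antibody peak of the deletion line overlapped 90 (42.1%, 35.6 to 48.8), against 17.04%. Both antibodies gave a wild-type peak at 85 of the 214 (39.7%, against 14.4% of all), the dCTCF antibody alone at 6 and HA alone at 3. Both gave a deletion-line peak at 76 of the 214 (35.5%, against 13.2% of all). At 88 of the 214, against 15.3% of all, an HA or dCTCF-antibody peak was listed in both genotypes, so dCTCF was still listed at most of these places in the deletion line. Only wild type had one at 6 (2.80%, against 3.77% of all) and only the deletion line at 2 (0.935%, against 1.79% of all), near Atx2 and kst, 2 weak CP190 peaks at places 2357 and 2488. The other 118 overlapped no HA or dCTCF-antibody peak of either genotype, 55.1% (48.4 to 61.7) against 79.2% of all wild-type CP190 peaks. Among the 165 absent peaks, 72 had an HA or dCTCF-antibody peak in both genotypes, 4 in wild type only, 2 in the deletion line only and 87 in neither. Among the 49 moved peaks these numbers were 16, 2, 0 and 31.

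Peaks at dCTCF and away from it sat in different parts of the CP190 list. The deposited fold enrichment, a linear ratio of ChIP over the control library by the authors, ran from 2.40 to 129.7 over the 214 peaks with a median of 3.81, and 39 of them (18.2%) belonged to the strongest 50% of the list. The 72 absent peaks with dCTCF in both genotypes had a median fold enrichment of 5.04 and 22 of them were in the strongest 50%. The 87 absent peaks without dCTCF had a median of 3.07, and 50 of them were in the weakest decile. Within the strongest 50% of the list, 30 of 322 CP190 peaks with a wild-type HA or dCTCF-antibody peak were among the chosen (9.32%, 6.60 to 13.0), against 9 of 936 without one (0.962%, 0.507 to 1.82). Within the weakest 50% the numbers were 64 of 157 (40.8%, 33.4 to 48.6) and 111 of 1102 (10.1%, 8.43 to 12.0). Membership was thus less frequent among strong CP190 peaks in either case, and more frequent with dCTCF in each part of the list.

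**Figure D1:**
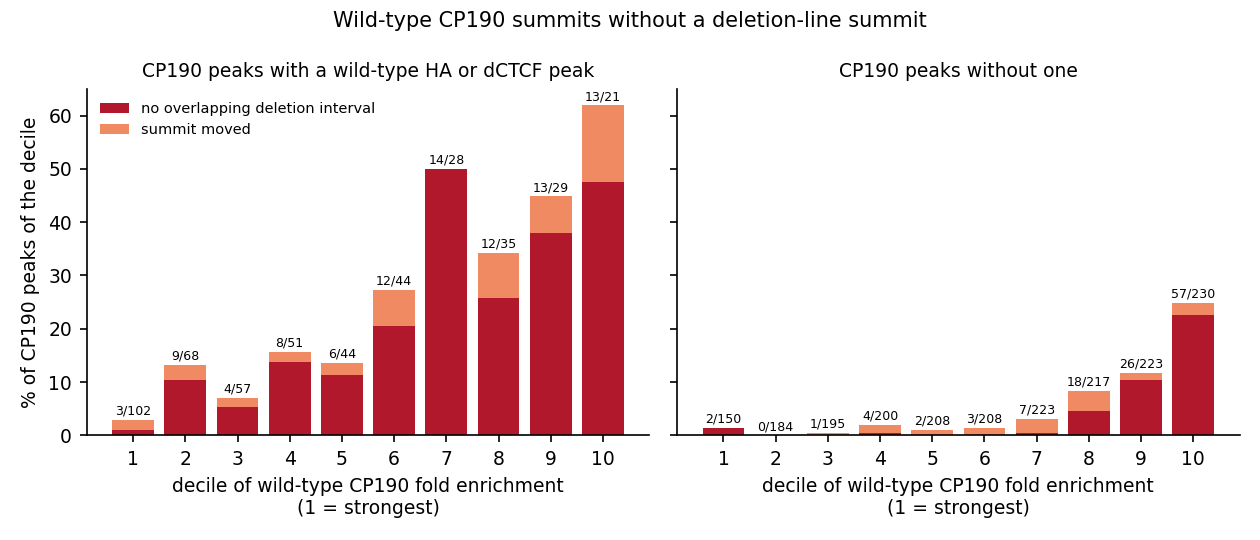
Share of wild-type CP190 peaks (vertical axis, %) without a deletion-line summit within 200 bp, by decile of wild-type fold enrichment (horizontal axis, 1 = strongest), for peaks with (left) and without (right) a wild-type HA or dCTCF-antibody peak. Dark bars are absent peaks, light bars moved peaks, and the numbers are chosen peaks over all peaks. From decile 2 to decile 7 the left bars hold 4 to 14 peaks each, whereas the right bars hold 0 to 7 of about 200 peaks.

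The strongest absent peaks with dCTCF in both genotypes lay near genes of several kinds, and at the first 8 the dCTCF and CP190 summits nearly coincided in wild type. Places count from the highest fold enrichment within one list, and coordinates are those of the files, which fit Release 6 of the genome (dm6). The first lay at 3L:14111329-14112136, outside annotated genes between Sox21a and Sox21b, which encode SoxB transcription factors. CP190 was at place 257 of 2517 with 29.0-fold enrichment, and its summit was 2 bp from the dCTCF-antibody summit. The deposited -log10 p-value was 663.9. The nearest deletion-line CP190 summit was 58473 bp away. HA was 175th of 627 wild-type peaks and 460th of 623 deletion-line peaks, and the dCTCF antibody 118th of 700 and 483rd of 648, so both antibodies were listed in the weaker part of the deletion lists here.

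At X:15594141-15595694, between Chsy (a chondroitin synthase) and sog (a secreted antagonist of BMP signalling), CP190 was at place 269 with 27.7-fold enrichment. HA was at places 126 and 258 and the dCTCF antibody at 95 and 273, wild type first. At X:10832234-10833128, with its summit 187 bp from sbr (a nuclear export factor for mRNA) and with Imp (an RNA-binding protein) as the other neighbour, CP190 was at place 271 with 27.6-fold enrichment. The dCTCF antibody was 22nd in wild type, the best place of all absent peaks, and 276th in the deletion line. These 3 sites were thus strong for dCTCF in wild type and were still listed for it in the deletion line.

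The next 5 had CP190 between places 293 and 538, and all 5 had HA and dCTCF-antibody peaks in both genotypes. At X:15653305-15654066, between CG8117 and CG8119, CP190 showed 26.6-fold enrichment, with the dCTCF antibody at places 41 and 186. At X:17531542-17532821, inside CG43658 and 29131 bp from its nearest gene end, it showed 26.5-fold enrichment, with the dCTCF antibody at 64 and 216. The peak at 3R:7809848-7810779 had its summit 161 bp from sgll, which encodes pyridoxine 5′-phosphate oxidase. It showed 22.6-fold enrichment, with the dCTCF antibody at 45 and 210. Its listed summit was at the same base as that of the second of the 2 sets of calls behind the list. The nearest deletion-line CP190 summit there was only 1362 bp away, in an interval that did not overlap. The remaining 2 lay at 3L:3616225-3616847, inside CG10357 (20.9-fold, dCTCF antibody at 54 and 375), and at 3L:6264220-6264993, between Ldh (lactate dehydrogenase) and CG43168 (17.5-fold, dCTCF antibody at 87 and 221).

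Across all chosen peaks at dCTCF, wild-type CP190 summits were close to those of dCTCF. The median distance was 13 bp to the dCTCF-antibody summit at 75 absent peaks and 23 bp at 336 recurring peaks. Distances of at most 50 bp were found at 66 of 75 absent peaks (88.0%, 78.7 to 93.6) and at 240 of 336 recurring peaks (71.4%, 66.4 to 76.0). For HA summits these were 63 of 73 (86.3%, 76.6 to 92.4) and 245 of 327 (74.9%, 70.0 to 79.3). Absent peaks were weaker in CP190 than recurring ones, and narrower. With dCTCF in both genotypes the median widths were 579 bp for absent and 1000.5 bp for recurring peaks. A wider interval can overlap a peak with a more distant summit, and the role of width was not tested. With only the weakest 50% of the CP190 list and dCTCF in both genotypes, the dCTCF antibody gave 42 of 50 (84.0%, 71.5 to 91.7) and 43 of 65 (66.2%, 54.0 to 76.5). HA gave 42 of 50 (84.0%, 71.5 to 91.7) and 40 of 58 (69.0%, 56.2 to 79.4). The intervals of absent and recurring peaks overlapped in both, as they did for HA in the whole list. The median widths in this part were 468.5 and 599 bp.

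**Figure D2:**
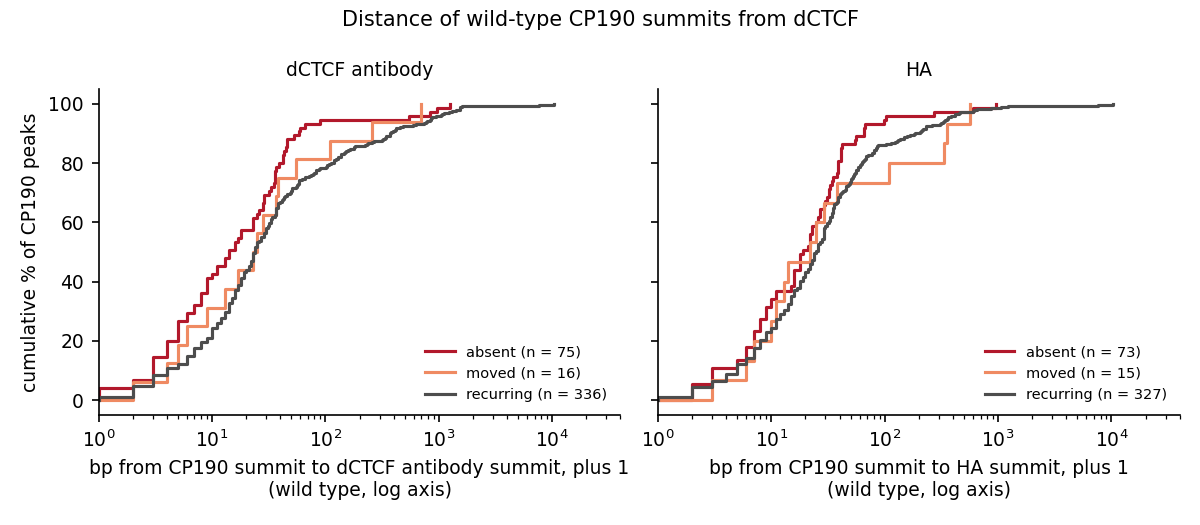
Cumulative share (vertical axis, %) of wild-type CP190 peaks by the distance from their summit to that of the overlapping wild-type dCTCF-antibody (left) or HA peak (right), in bp plus 1 on a log axis, for absent, moved and recurring peaks. The median to the dCTCF antibody was 13 bp for absent, 23 bp for moved and 23 bp for recurring peaks.

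Where both genotypes had a dCTCF peak at an absent CP190 peak, its summits nearly coincided. At 64 absent peaks with a dCTCF-antibody peak in both genotypes, the 2 summits of that antibody were a median of 10 bp apart, and 63 of 64 (98.4%, 91.7 to 99.7) were within 200 bp. For HA the median was 8 bp, with 71 of 72 within 200 bp. At recurring peaks the medians were 11 bp for the dCTCF antibody and 9.5 bp for HA.

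The strength of dCTCF within its own lists was compared between absent and recurring peaks, separately for each genotype. In wild type, HA was in the strongest 50% of its list at 61 of 72 absent peaks (84.7%, 74.7 to 91.2) and at 210 of 270 recurring peaks (77.8%, 72.4 to 82.3). In the deletion line it was so at 43 of 72 (59.7%, 48.2 to 70.3) and at 217 of 270 (80.4%, 75.2 to 84.7). The dCTCF antibody, which has another control library, gave 62 of 64 (96.9%, 89.3 to 99.1) against 224 of 271 (82.7%, 77.7 to 86.7) in wild type, and 47 of 64 (73.4%, 61.5 to 82.7) against 219 of 271 (80.8%, 75.7 to 85.1) in the deletion line. The intervals of absent and recurring peaks thus lay apart for HA in the deletion line, where the absent peaks had the smaller share, and for the dCTCF antibody in wild type, where they had the larger one, and overlapped in the other comparisons. By median place over all CP190 peaks, absent peaks were lower in each list than recurring ones. For the dCTCF antibody they were at the top 28.1% against 25.9% in wild type and 41.0% against 25.6% for the deletion line. The strongest and weakest 50% of CP190 peaks were also taken alone. There the wild-type dCTCF antibody had the opposite order, with medians of 15.2% for absent and 21.5% for recurring peaks in the strongest 50%. In the weakest 50% its medians were 35.1% and 40.1%. It was in the upper part of its list at 42 of 44 absent peaks (95.5%, 84.9 to 98.7) of the weakest 50%. At recurring peaks it was so at 37 of 61 (60.7%, 48.1 to 71.9), with intervals apart. In the strongest 50% these were 20 of 20 and 187 of 210. Wild-type HA had medians of 24.1% and 24.8% in the strongest 50%, and 41.8% and 39.4% in the weakest 50%, absent peaks first. In the strongest 50%, wild-type HA was in the upper part of its list at 21 of 22 absent and 175 of 216 recurring peaks. Deletion-line HA was so at 12 of 22 (54.5%, 34.7 to 73.1) and 178 of 216 (82.4%, 76.8 to 86.9), with intervals apart. In the other deletion-line comparisons the intervals overlapped. The dCTCF antibody gave 14 of 20 absent and 179 of 210 recurring peaks in the strongest 50%. In the weakest 50%, HA gave 31 of 50 and 39 of 54. The dCTCF antibody there gave 33 of 44 and 40 of 61, with the larger share at absent peaks. The deletion lists rank other sets of sites than the wild-type lists, so these shares compare peaks within a list and give no amount of change between genotypes. At 8 of the 72 absent peaks with dCTCF in both genotypes the dCTCF antibody had no deletion-line peak and HA alone marked the site.

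**Figure D3:**
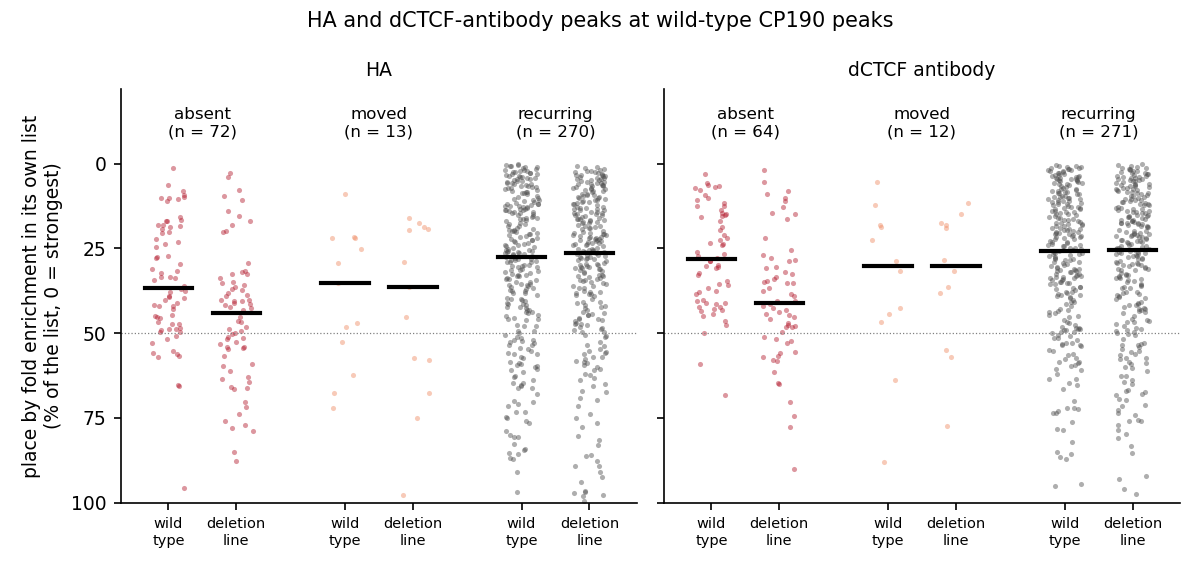
Place by fold enrichment of each HA (left) or dCTCF-antibody peak (right) within its own list, in % of the list (vertical axis, 0 = strongest), at wild-type CP190 peaks with that antibody's peak in both genotypes. Points are peaks and black lines medians. For HA the medians of absent peaks were 36.6% (wild type) and 44.1% (deletion line), and those of recurring peaks 27.7% and 26.5%.

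Moved peaks at dCTCF were examined by the distance of both CP190 summits from the wild-type dCTCF summit. Of the 49 moved peaks, 18 had a wild-type dCTCF-antibody or HA peak. The wild-type CP190 summit was within 100 bp of its summit at 13 of the 18, with a median of 25.5 bp, and the deletion-line CP190 summit at 1 of 18, with a median of 488 bp. The deletion-line summit was the farther one at 16 and the nearer one at 2. Since the rule demands over 200 bp between the 2 CP190 summits, a summit that started within 100 bp of dCTCF had to end farther away, so this direction follows from the rule at those 13. In the second set of calls the wild-type summit was also within 100 bp at 11 of the 13, the exceptions being mIF2 and CG1943.

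The strongest moved peak lay at 3L:504914-507370 inside klar, which encodes a protein that links nuclei to the cytoskeleton. CP190 was at place 106 of 2517 with 46.9-fold enrichment, its summit was 12 bp from that of the dCTCF antibody, and the deletion-line summit (place 357 of 3164) was 262 bp from it. At 3R:17614880-17618293, near CG14324, the wild-type summit (place 145, 40.4-fold) was 24 bp from the dCTCF-antibody summit and the deletion-line summit (place 620) 2131 bp, near the other end of an interval of 2921 bp. These 2 distances were 8 bp and 582 bp at 3R:16259880-16262248, between tara and bor. They were 16 bp and 1806 bp at 3R:20947684-20950368, beside Atpalpha, the alpha subunit of the sodium pump. In each of these 4 the listed wild-type summit and that of the second set of calls were within 5 bp of each other. A further strong case lay on an unplaced Y scaffold, with 4 bp and 289 bp. The deletion-line summit was the nearer one at SRPK (331 bp from the HA summit for wild type, 17 bp for the deletion line) and at 1 of the 2 moved peaks at Maf1.

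**Figure D4:**
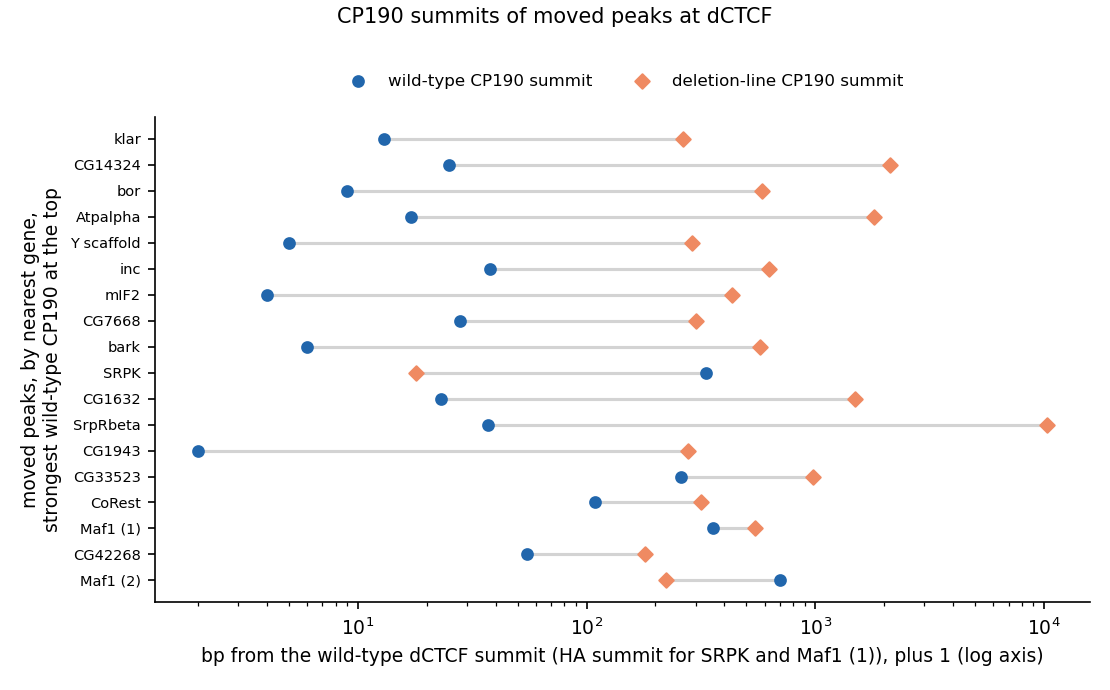
Distance in bp, plus 1, on a log axis, from the wild-type dCTCF-antibody summit (HA summit where that list had no peak) to the wild-type (circles) and deletion-line CP190 summits (diamonds) of the 18 moved peaks at dCTCF, named by the nearest gene. The wild-type summit was within 100 bp at 13 of the 18 and the deletion-line summit at 1.

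Some moved peaks shared their deletion-line interval with a neighbour. The overlapping deletion-line interval also overlapped a 2nd wild-type CP190 peak at 15 of the 49, and at all 15 its summit was the nearest one of a recurring peak. Of these 15, 13 had no HA or dCTCF-antibody peak in either genotype and 2 had one in both. An example without dCTCF was Dtg (3R:12650235-12651395, place 541, 17.5-fold), where the wild-type peak of 1161 bp fell into a deletion-line interval of 3455 bp with its summit 2189 bp away. UK114 (2L:15274872-15275532, place 1670) was a similar case, at 2559 bp. The largest distance, 10303 bp, belonged to a peak near SrpRbeta at 3L:8716416-8719817 (place 1838), where the deletion-line interval was 20532 bp long. The deletion-line summit lay inside the wild-type interval at 34 of the 49.

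The uncertainty of a summit was gauged from the distance between the listed summit and that of the second of the 2 sets of calls. The sets may or may not be the replicates. The first set was not read, so the distance between the 2 sets was not measured and may be larger. At the 165 absent peaks the listed and second-set summits were a median of 20 bp apart and 0 of 165 exceeded 200 bp (upper Wilson bound 2.28%). At moved peaks the median was 23 bp and 6 of 49 exceeded 200 bp, and at recurring peaks it was 12 bp with 8 of 2303 over 200 bp. With the summits of the second set in both lists 214 peaks were also without a partner, and 198 of them were the same peaks. Just inside the limit were CoRest (206 bp), Pi3K21B (213 bp) and CG42268 (233 bp), all moved and all beyond place 1800. Just outside were the peaks near Orp8 (199 bp), Prim1 (198 bp) and Sqor (193 bp).

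Away from dCTCF few strong peaks were absent, and the strongest of them were at the very top of the list. The strongest peak of the whole wild-type CP190 list, at X:4105239-4106756 between brn (a glycosyltransferase) and cib (an actin-binding protein), had 129.7-fold enrichment and no overlapping deletion-line interval. Its -log10 p-value was 4858. The nearest deletion-line summit lay 1672 bp away, and the next wild-type CP190 summit 1688 bp away. Place 5, beside Ald1 (an aldolase, 3R:26260631-26262829, 111-fold), counts as a dCTCF site, in wild type only. It overlapped a weak wild-type dCTCF-antibody peak at place 654 whose summit was 830 bp away. Place 7, without dCTCF in either genotype, lay inside CG34462, next to the cuticle protein gene Cpr66Cb (3L:8328349-8330219, 100.6-fold). These 3 had a global irreproducible discovery rate (IDR) of 0.00948, 0.00681 and 0.00519. The IDR is low where both sets of calls rank a peak high and alike. The median of the list, which ends at 0.01, was 0.00151. In the deletion-line CP190 list the 25 strongest peaks had an IDR of 0.00315 to 0.00953, with 12 of them over 0.005, so several of the strongest peaks of that list were close to its limit. Whether these 3 places fell beyond that limit in the deletion line was not tested. No other chosen peak was among the 25 strongest, and 2 were at places 26 to 250.

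The next absent peaks without dCTCF were far weaker. They lay inside lovit, a histamine transporter gene (3L:25574115-25574543, place 964, 9.83-fold), inside Snoo, a homologue of the Ski and Sno proteins (2L:7960768-7961857, place 1652), in the overlap of CG43739 and sky (2L:20885638-20886528, place 1808) and between Amph, an amphiphysin, and Galphaq, a G protein subunit (2R:12612123-12613472, place 1811). Of the 87, 1 had a wild-type HA or dCTCF-antibody summit within 1000 bp. The other 5 peaks with dCTCF in wild type only were weak too. The first were at Argk1 (arginine kinase, place 1697), with the CP190 and dCTCF-antibody summits at the same base but the second set's CP190 summit 192 bp away, and at CG33523 (moved, place 2025).

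Position relative to protein-coding genes was described with either gene end, because the gene table gives no strand. On the chromosome arms, 95 of 213 chosen peaks (44.6%, 38.1 to 51.3) lay within 200 bp of a gene end by their summit, against 47.8% of all wild-type CP190 peaks, and 105 (49.3%, 42.7 to 56.0) had it inside a gene, against 38.6%. The 87 absent peaks without dCTCF had the largest share inside genes of the 4 groups plotted, 50 of 87 (57.5%, 47.0 to 67.3), against 729 of 1872 recurring peaks without dCTCF (38.9%, 36.8 to 41.2). In the weakest decile alone these shares were 30 of 50 (60.0%, 46.2 to 72.4) and 78 of 171 (45.6%, 38.3 to 53.1), with overlapping intervals. At dCTCF sites of both genotypes, 28 of 72 absent peaks (38.9%) and 120 of 295 recurring peaks (40.7%) were near a gene end, which are similar shares. In the weakest 50% of the list alone, 20 of 50 absent peaks (40.0%, 27.6 to 53.8) and 44 of 67 recurring peaks (65.7%, 53.7 to 75.9) were, with intervals that just overlap.

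**Figure D5:**
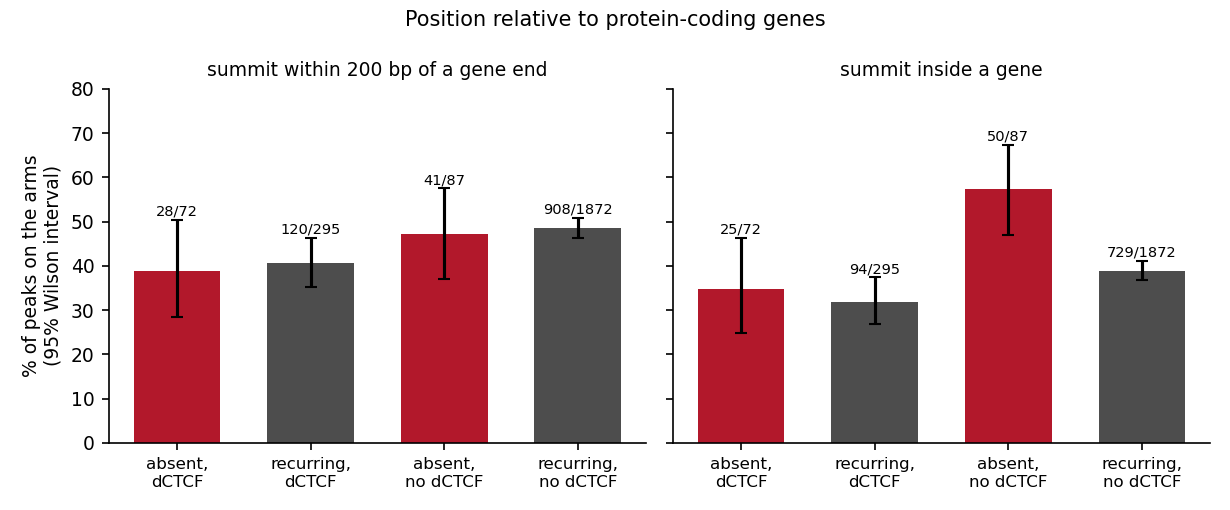
Share of CP190 peaks on the chromosome arms (vertical axis, %) with the summit within 200 bp of a protein-coding gene end (left) or inside a protein-coding gene (right), for absent and recurring peaks with an HA or dCTCF-antibody peak in both genotypes or in neither. Error bars are 95% Wilson intervals and the numbers are peaks over all peaks of the group. The share inside genes was 57.5% for absent peaks without dCTCF and 38.9% for recurring ones.

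By the nearest protein-coding gene, 10 genes had more than 1 chosen peak. CG15465 had 3, and the other 9 had 2 each, among them Eip74EF, an ecdysone-induced transcription factor, Kdm2, a histone demethylase, Mnt, a partner of the Myc network, and Pgant9, an O-glycosylation enzyme. Genes with more than 1 peak were not counted over all wild-type CP190 peaks, so no concentration at these genes is shown. Counts in the gene lists were small and are to be read against the 8.50% of all wild-type CP190 peaks that were chosen. Of the 12 wild-type CP190 peaks nearest to a homeotic gene, 1 was among the chosen. It lay at 3R:16919105-16919406, inside lncRNA:iab8 near Abd-B, with CP190 at place 2139, HA at places 307 and 369, and the dCTCF antibody at 284 and 370. Of 37 peaks nearest to ribosomal protein genes, 2 were among the chosen, at RpS26 (absent, with dCTCF in both genotypes) and RpS9 (moved, without dCTCF). Of 4 peaks nearest to any of 15 insulator protein genes, 0 were. Of the 214, 44 were on X (20.6%, against 18.9% of all wild-type CP190 peaks), 35 on 2L (16.4% against 18.1%), 42 on 2R (19.6% against 18.3%), 50 on 3L (23.4% against 20.4%) and 41 on 3R (19.2% against 23.4%). The whole-list share lay inside the members' interval for each of these 5.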

How the data were processed

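Peak lists of 6 ChIP-seq combinations were used, 1 list named for both replicates of an antibody and genotype, per the labels. The submitters' processing notes name cutadapt, Bowtie2, Picard and deepTools and the builds dm6 and dm3 without their roles; the peak caller is not given in the sources used here. Each list has 20 columns in the layout of the IDR tool, which compares 2 sets of calls. The listed peaks and the second set were read, and the first set was not. The fold enrichment that the authors deposited is the ratio of ChIP to control, on a linear scale. The authors also deposited a −log10 p-value and, as a score of reproducibility, −log10 of the global IDR. Positions are in bp. Lists end at a global IDR of 0.01 (both CP190 lists and deletion HA) or 0.05, so a missing peak is not evidence of absent binding. The last 3R peak ends at 32068772 and the last 3R gene of the RefSeq table (Release 6 plus ISO1 MT) at 32068441, and the files were read as dm6.

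A peak was chosen when no deletion-line CP190 summit lay within 200 bp on the chromosome. Peaks overlapped when they shared at least 1 bp. With several HA or dCTCF-antibody peaks, the nearest summit was used. Tied fold enrichments share the better place. The nearest gene was the protein-coding gene of the smallest gap among 13921 on the arms. The peaks, the naming rule and the gene lists were chosen with earlier results of these data known. Named were the 8 strongest absent peaks with dCTCF in both genotypes, the 6 strongest with dCTCF in neither, the 6 strongest moved peaks, the 4 moved farthest, 3 on each side of the limit and the 3 strongest with dCTCF in wild type only. Others named, among them genes with several peaks and members of the gene lists, were picked as counted items after their values were seen.

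On a simulated deletion list with 200 of 2517 peaks removed and 50 summits shifted by 300 bp, 200 were found absent and 50 moved. That list was a copy of the wild-type list with its intervals unchanged, so this checks the code and gives no error rate for real lists. Overlaps were identical to bedtools 2.31.1 in 30 of 30 pairs of lists. No genome sequence was used, so motifs were not analysed here. Python 3.11.15, numpy 2.4.6, pandas 2.3.3, scipy 1.17.1 and matplotlib 3.10.9 were used.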

Additional observations from a re-analysis of the deposited data

How the results depend on the processing

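Over 6 results there were 46 alternative values. Of these, 33 stayed within a factor of 1.5 (numbers of peaks) or inside the interval of the value reported (shares), and 13 did not. Some of the 33 could not change. Both CP190 lists already ended at an IDR of 0.01, so this limit in every list had to leave 214 chosen, 165 absent and 49 moved peaks. No absent peak had a deletion-line CP190 summit closer than 790 bp, so summit limits of 100 and 500 bp had to leave 165 absent. A summit limit of 100 bp gave 97 moved peaks. The strongest 50% of the wild-type CP190 list gave 39 chosen peaks of 1258 (3.10%, 2.28 to 4.21), against 8.50% of the whole list. Of these 39, 26 were absent and 13 moved. A wild-type HA or dCTCF-antibody peak was at 76.9% of the 39, and at 322 of all 1258 peaks of the strongest 50%. A deletion-line one was at 74.4% and a gene end at 36.8%. For these the share over the strongest 50% was not computed, and those of the whole list were 17.04% and 47.8%. The number of chosen peaks thus fell by more than the shorter list alone gives. With the deletion list limited to its 2517 strongest peaks 348 were chosen and 304 absent, and the HA or dCTCF shares were 36.2% and 33.6%, wild type first, since weak deletion peaks were removed. Both antibodies together gave 35.5% in the deletion line, and 500 bp to a gene end gave 56.3%, with no whole-list share computed at that distance. Of the alternatives, 1 accepts the listed or the second-set summit or interval (197 chosen, 164 absent, 33 moved). Another leaves out the 25 strongest wild-type peaks (211 chosen). Both were chosen after seeing the data. No paired analysis was possible because the labels assign 1 list to both replicates of a group and nothing ties its 2 sets of calls to replicate numbers; for the same reason no replicate could be left out. The planned motif count was not run. Without read counts, whether a peak is listed depends on a threshold, and signal below it was not measured here.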
